A study of Rattus norvegicus with 9 samples.

Results

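The respiratory chain and the ATP synthase are the enzyme complexes of the inner mitochondrial membrane that turn the oxidation of nutrients into ATP. Members were all probe sets whose single gene symbol in the array annotation begins with Nduf, Uqc, Atp5, Cox4, Cox5, Cox6, Cox7 or Cox8, or is Sdha, Sdhb, Sdhc, Sdhd, Cyc1 or Cycs. The rule gave 104 of the 31042 probe sets other than controls, and these stand for 93 nuclear genes: 42 of complex I, 4 of complex II, 14 of complex III, 17 of complex IV and 16 of complex V. Complex IV includes 1 pseudogene, Cox6c-ps1. No probe set with Cycs as its single symbol was found, and 7 further probe sets that carry a member symbol together with others were left out. Complex assignment followed the symbol, so that Ndufa4, whose protein is now placed with complex IV, was counted with complex I.

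The arrays measured total RNA of the gastrocnemius, a calf muscle, from male Wistar rats of 250 g. All animals carried an Alzet osmotic pump for 7 days, with 1 array per animal and 3 animals per group. The groups received dexamethasone at 0.7 mg/kg/day plus testosterone, dexamethasone at 0.7 mg/kg/day alone, or the propylene glycol vehicle alone. The testosterone dose is given as 28 mg/kg/day in the sample labels and as 20 mg/kg/day in the series design, which was not settled here. Dexamethasone, a synthetic glucocorticoid, was thus shared by both hormone groups, and the study asked how testosterone alters its effects on muscle gene expression. No group received testosterone alone.

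As background, complex I takes electrons from NADH and complex II takes them from succinate. Coenzyme Q carries them to complex III and cytochrome c carries them to complex IV, which reduces oxygen. Complexes I, III and IV pump protons, and complex V, the ATP synthase, uses the returning protons to make ATP. Each complex except complex II also holds subunits encoded by mitochondrial DNA, which were not analysed here. Several complex IV subunits exist in a form for heart and skeletal muscle and a form for other tissues.

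The arrays fell into technical sets. After trimming 2% of probe sets at each end, the mean deposited signal was 500.3 in 5 arrays and 113.3 to 206.8 in the other 4, which are replicate 1 of the combination group, replicate 1 of the dexamethasone group and replicates 1 and 3 of the vehicle group. Among the 5 scaled arrays, replicate 3 of the combination and of the dexamethasone group had low added-RNA control signals and Gapdh 3′ to 5′ signal ratios of 6.22 and 4.94, against 1.06 to 1.17 in the other 7 arrays. Signals were therefore compared after quantile normalization on the log2(intensity + 16) scale, and all values below are log2 signals or log2 differences on that scale. The muscle fibre markers Acta1, Ckm, Des, Mb and Ttn were present on all arrays, with summed signals of 132192 to 138829 in the combination group, 136170 to 143814 in the dexamethasone group and 132830 to 139201 in the vehicle group. In bulk muscle, fewer cells of a type and less RNA per cell cannot be told apart.

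Probe sets of the chain were among the brightest on the array: 79 of the 93 genes lay above the 90th percentile of all probe sets by their mean signal. A gene was represented by its brightest probe set, and 91 genes (100 of the 104 probe sets) passed the filter on low signal. Cox6b2, a form of its subunit best known from testis, and Cox7b2 did not pass. The median standard error of a log2 difference was 0.20 for member genes and 0.25 for all 10428 tested genes with 1 symbol.

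No member passed the test in any comparison. In dexamethasone against vehicle, 0 of 100 member probe sets had an adjusted p under 0.05 by limma with Benjamini-Hochberg adjustment, where 1.05% of all 18625 tested probe sets did. At an unadjusted p under 0.05, 7 member probe sets passed, all lower with dexamethasone, against 15.5% of all probe sets. In the combination against dexamethasone, 0 of 100 members passed, against 0.113% of all probe sets, and at an unadjusted p under 0.05 the counts were 4 members, all higher, and 11% of all probe sets. In the combination against vehicle no probe set of the array passed (0%), and at an unadjusted p under 0.05 the counts were 2 members and 6.12% of all probe sets. The lowest adjusted p of a member gene, by its brightest probe set, was 0.147, 0.406 and 0.815 in the order of these comparisons. Over all 100 member probe sets it was 0.127, 0.231 and 0.815 by limma. The values of 0.127 and 0.231 are those of the dimmer Ndufa9 probe set. Under every alternative run, 0 member probe sets passed as well.

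Under quantile normalization, the intervals limit what could have been missed. They do not cover the choice of scaling. The members' median was -0.16 with quantile normalization and 0.16 with median scaling for dexamethasone against vehicle. For the combination against vehicle it was -0.02 and 0.35. In dexamethasone against vehicle the 95% interval of 81 of the 91 genes (89.0%) lay between log2 differences of -1 and 1, against 61.8% of all tested genes. In the combination against dexamethasone this held for 84 genes (92.3%, all genes 68.2%), and in the combination against vehicle for 82 (90.1%, all genes 71.6%). The median interval reached 0.45 to either side and is not adjusted for the number of probe sets tested. Smaller differences of a single gene were mostly not detectable with 3 arrays per group, and larger ones could also miss the adjusted threshold. Ndufb8, at -1.04 in dexamethasone against vehicle, had an adjusted p of 0.147 by limma.

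With dexamethasone against vehicle, 75 of the 91 genes had a log2 difference below 0 and 16 above 0, with a median of -0.16 and quartiles of -0.28 and -0.05, while under scaling of the arrays by their medians alone the median was 0.16. Among all tested genes the median difference was 0.04 and 45.7% lay below 0. Relative to the median of all genes, the members' median was -0.20 with quantile normalization, -0.22 with cyclic loess and -0.11 with median scaling, which moved the median of all genes to 0.28. Complexes had medians of -0.17 (complex I, 35 of 42 genes lower), -0.28 (complex II, 3 of 4), -0.13 (complex III, 11 of 14), -0.11 (complex IV, 11 of 15) and -0.18 (complex V, 15 of 16), and each of these 5 medians was above 0 under median scaling. Without assembly factors, the inhibitor Atp5if1 and the pseudogene Cox6c-ps1, which had 0.51 ± 0.29, 69 of 77 subunit genes were lower, with a median of -0.18. Dexamethasone and vehicle arrays did not overlap for 18 member probe sets that were lower, against 10.4% of all probe sets, and for 3 that were higher, against 12.5%.

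Dexamethasone replicate 1 had the lowest members' median. Relative to the mean of the vehicle arrays, the median over the 91 genes was -0.42, -0.01 and -0.04 in dexamethasone replicates 1, 2 and 3, against 0.03, 0.04 and -0.06 in the vehicle replicates. In the combination group it was -0.06, -0.05 and 0.02. Dexamethasone replicate 1 stood below every other array, and the other dexamethasone arrays lay within the range of the vehicle arrays. That array was the lowest of all 9 for 66 of the 91 genes (72.5%), and for 13.8% of all tested genes. It lay below all 3 vehicle arrays for 77 member genes (84.6%), against 26 (28.6%) in dexamethasone replicate 2 and 40 (44.0%) in replicate 3. The corresponding shares of all tested genes were 31.8%, 35.4% and 23.3%. Combination replicates 1, 2 and 3 lay below all vehicle arrays for 44 (48.4%, all genes 28.0%), 39 (42.9%, all genes 26.2%) and 29 (31.9%, all genes 24.5%) of the members. Without dexamethasone replicate 1 the members' median was -0.03 in dexamethasone against vehicle.

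All 5 complexes were low together in this array. The median difference from the vehicle mean in dexamethasone replicate 1 was -0.44 for complex I, -0.53 for complex II, -0.40 for complex III, -0.40 for complex IV and -0.40 for complex V. The medians in the vehicle arrays lay between -0.07 and 0.06 throughout. Subunits and assembly factors differed in size, with -0.66 for the 6 core subunits of complex I, -0.44 for its 30 accessory subunits, -0.43 for the 5 F1 subunits of complex V and -0.22 for the 12 assembly factors. Assembly factors were also dimmer, with a median signal of 9.87 against 13.10 for core and 13.13 for accessory subunits. The part of signal level in this contrast was not tested. The difference between members and all genes in this array was -0.47 with quantile normalization, -0.44 with median scaling and -0.44 with cyclic loess, while the number of genes lowest there was 66, 34 and 58 under these.

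**Figure D1:**
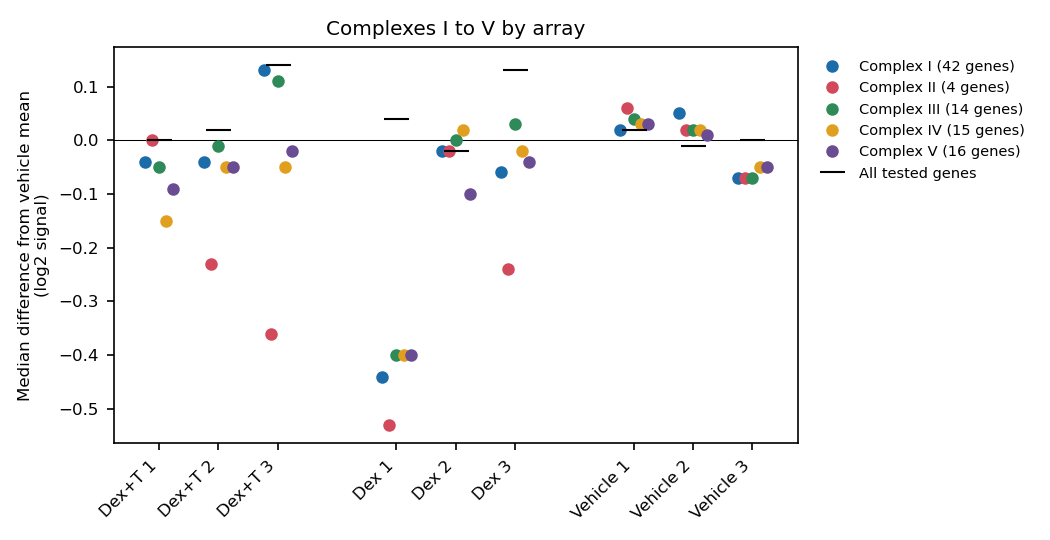
Median over the tested genes of each complex of the log2 signal minus the vehicle mean, for each of the 9 arrays, with the median of all tested genes as a black bar (Dex+T, dexamethasone plus testosterone; Dex, dexamethasone). After quantile normalization, all complexes lie between -0.53 and -0.40 in dexamethasone replicate 1. Apart from complex II, they lie between -0.15 and 0.13 in the other arrays of the hormone groups. Under median scaling the medians of the dexamethasone group against vehicle turn positive, while the median of all genes moves to 0.28.

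Within the technical sets, dexamethasone against vehicle gave a median of -0.39 with 84 of 91 genes lower in the unscaled arrays (dexamethasone replicate 1 against vehicle replicates 1 and 3). In the scaled arrays with high added-RNA controls (replicate 2 of each group) the median was -0.05, with 57 of 91 lower. All tested genes had medians of 0.03 in the unscaled arrays and -0.02 in the replicate 2 arrays, beside -0.39 and -0.05 for the members. In the replicate 2 arrays complex III was at 0.01 and complex IV at -0.01. The scaled arrays with low added-RNA controls held no vehicle array.

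With the combination against dexamethasone, 68 of the 91 genes had a difference above 0 and 23 below, with a median of 0.10, where all tested genes had a median of -0.00. The median was 0.17 for complex I (35 of 42 genes higher), 0.08 for complex II (2 of 4), 0.08 for complex III (11 of 14), -0.00 for complex IV (7 of 15) and 0.12 for complex V (13 of 16). Because this comparison shares the dexamethasone arrays with the one against vehicle, the low array enters both. Without dexamethasone replicate 1 the members' median was -0.01. Within the technical sets it was 0.28 (79 genes higher) in the unscaled arrays, -0.03 (40 higher) in the scaled arrays with high controls and 0.09 (59 higher) in those with low controls. Groups did not overlap for 11 member probe sets that were higher in the combination group, against 7.24% of all probe sets, and for 1 that was lower, against 7.35%.

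With the combination against vehicle the median over the 91 genes was -0.02, with 59 genes below 0, and 0.35 under median scaling. That scaling moved the median of all genes to 0.25. Relative to the median of all genes, the members' median was -0.05 with quantile normalization, -0.10 with cyclic loess and 0.10 with median scaling. Its sign thus depended on the scaling. Medians were 0.01 for complex I, -0.24 for complex II, -0.02 for complex III, -0.06 for complex IV and -0.07 for complex V. Under median scaling all 5 were above 0, with complex II, at 0.11, below the median of all genes. Without the pseudogene, 14 of 14 complex IV genes were below 0 under quantile normalization, with a median of -0.07 beside a median standard error of 0.19. Among all tested genes 44.3% were below 0, with a median of 0.04. Under quantile normalization, groups did not overlap for 11 member probe sets that were lower in the combination group, against 5.79% of all probe sets, and for 0 that were higher, against 7.53%. In the unscaled arrays the members' median was -0.05 and in the scaled arrays with high controls -0.09.

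**Figure D2:**
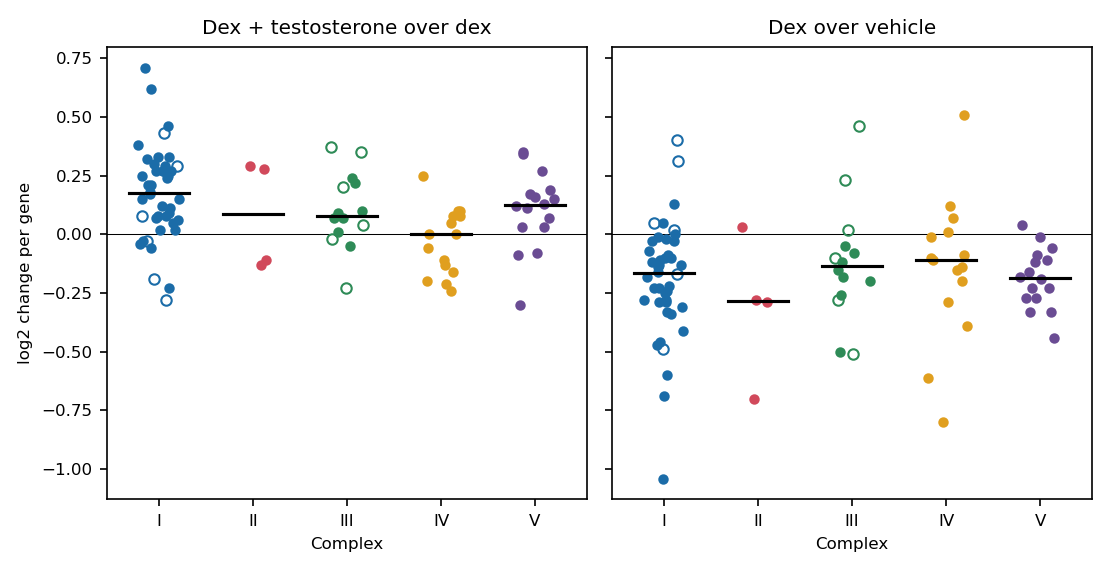
Log2 difference of each tested gene by complex, for dexamethasone plus testosterone over dexamethasone (left) and dexamethasone over vehicle (right); filled circles are subunits, open circles are assembly factors, and bars are medians. The medians lie between -0.00 and 0.17 on the left and between -0.28 and -0.11 on the right. On the right all 5 are above 0 under median scaling, which moves the median of all genes to 0.28. No gene passed the test in either comparison.

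Complex I held the gene with the largest difference between dexamethasone and vehicle. Ndufb8, an accessory subunit of the membrane arm, had log2 signals of 11.03, 10.21 and 9.79 in the combination arrays, 9.54, 10.02 and 9.60 in the dexamethasone arrays and 10.74, 10.60 and 10.93 in the vehicle arrays. Every dexamethasone array lay below every vehicle array, and the combination arrays spread across both. The difference of dexamethasone from vehicle was -1.04 ± 0.31 (SE; adjusted p = 0.147 by limma; 95% interval -1.73 to -0.34), and within the technical sets it was -1.30 in the unscaled and -0.58 in the scaled arrays with high controls. The combination differed from dexamethasone by 0.62 ± 0.31 (adjusted p = 0.521) and from vehicle by -0.42 ± 0.31 (adjusted p = 0.884). Ndufa7, another accessory subunit, had a combination over vehicle difference of 0.28 ± 0.21 (adjusted p = 0.885 by limma). In that comparison 23 of the 42 complex I genes were above 0 and 19 below.

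Ndufv3, an accessory subunit of the NADH-oxidizing module, had signals of 12.66, 12.63 and 13.02 in the combination arrays, 12.20, 12.22 and 12.50 in the dexamethasone arrays and 12.75, 12.76 and 12.65 in the vehicle arrays. The dexamethasone arrays lay below all others, with differences of -0.41 ± 0.19 from vehicle (adjusted p = 0.33 by limma) and of 0.46 ± 0.19 for the combination over dexamethasone (adjusted p = 0.406). Within the 3 technical sets the combination over dexamethasone difference was 0.46, 0.41 and 0.52. Its other probe set gave -0.38 and -0.29 in these comparisons, so the probe sets disagreed in sign on the second.

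The core subunits carry the flavin and most iron-sulfur clusters that pass electrons through complex I. All 6 measured core genes had a difference below 0 in dexamethasone against vehicle, with none past the test: Ndufs1 at -0.14, Ndufs3 at -0.23, Ndufs7 at -0.24, Ndufs8 at -0.47, Ndufv1 at -0.22 and Ndufv2 at -0.60 (SE 0.20 to 0.39). Under median scaling 4 of the 6 were above 0, at 0.20 for Ndufs1, 0.12 for Ndufs3, 0.12 for Ndufs7 and 0.18 for Ndufv1. All 4 lay below the median of all tested genes, which was 0.28 under that scaling. Ndufs1 and Ndufs3 were also above 0 without dexamethasone replicate 1. Ndufs3, for example, had signals of 13.28, 13.07 and 13.44 in the combination arrays, 12.45, 13.14 and 13.21 in the dexamethasone arrays and 13.18, 13.24 and 13.08 in the vehicle arrays. Dexamethasone replicate 1 lay well below the vehicle range for Ndufs3, and the other dexamethasone arrays lay within it.

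Ndufv2, an iron-sulfur subunit next to the flavin site, followed another pattern. Its signals were 14.00, 13.95 and 12.76 in the combination arrays, 13.67, 13.98 and 12.80 in the dexamethasone arrays and 13.92, 14.24 and 14.11 in the vehicle arrays. The low pair are the arrays with the high Gapdh 3′ to 5′ ratios, where Ndufv2 differed from the mean of the other 7 arrays by -1.20. Uqcc1, Sdhc and Cyc1 were the only other member genes below all other arrays in both, which makes 4 of 91 genes (4.4%, all tested genes 4.5%), and 10 were above all others in both (11.0%, all genes 11.3%). The part of RNA quality in the values of these 4 genes was not tested.

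Assembly factors, which help build a complex without staying in it, did not share a direction. Under quantile normalization, 5 of 12 tested were lower and 7 higher with dexamethasone, with a median of 0.02. Ndufaf4, an assembly factor of complex I, had signals of 11.21, 11.20 and 10.79 in the combination arrays, 11.28, 11.55 and 11.23 in the dexamethasone arrays and 11.10, 10.80 and 10.95 in the vehicle arrays. The dexamethasone arrays were all above the others, by 0.40 ± 0.20 over vehicle (adjusted p = 0.384 by limma). Ndufaf8, which works with the complex I factor Ndufaf5, had 10.30, 10.43 and 10.80 in the combination arrays, 10.02, 10.13 and 10.09 in the dexamethasone arrays and 10.61, 10.63 and 10.48 in the vehicle arrays, a difference of -0.49 ± 0.19 for dexamethasone over vehicle (adjusted p = 0.241 by limma). Ndufaf8 was named after its values were seen.

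Complex II has 4 subunits, all encoded in the nucleus. Sdha, the flavoprotein that oxidizes succinate, had a dexamethasone over vehicle difference of 0.03 ± 0.20, and the iron-sulfur subunit Sdhb one of -0.28 ± 0.21. The membrane anchors Sdhc and Sdhd had differences of -0.70 ± 0.37 (adjusted p = 0.409 by limma) and -0.29 ± 0.20 (adjusted p = 0.532). Sdhc had signals of 13.23, 12.70 and 11.99 in the combination arrays, 12.13, 13.04 and 11.87 in the dexamethasone arrays and 13.00, 13.18 and 12.96 in the vehicle arrays. Its 3 lowest arrays are dexamethasone replicate 1 and the pair with high 3′ to 5′ ratios.

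In complex III, Cyc1, the cytochrome c1 subunit, had signals of 13.90, 13.79 and 13.15 in the combination arrays, 13.16, 13.90 and 13.12 in the dexamethasone arrays and 13.92, 14.02 and 13.73 in the vehicle arrays, and the same 3 arrays were lowest. Uqcrfs1, the Rieske iron-sulfur subunit, differed by -0.05 ± 0.18 between dexamethasone and vehicle (95% interval -0.45 to 0.35). Uqcc3, an assembly factor of complex III, had 8.88, 8.83 and 9.11 in the combination arrays, 8.65, 8.38 and 8.73 in the dexamethasone arrays and 9.09, 9.12 and 9.07 in the vehicle arrays. The dexamethasone arrays were below all others, by -0.51 ± 0.18 against vehicle (adjusted p = 0.214 by limma) and with 0.35 ± 0.18 for the combination over dexamethasone (adjusted p = 0.528). Uqcc2, another assembly factor, had a difference of 0.37 ± 0.17 for the combination over dexamethasone, and Uqcc5 and Uqcc6 had dexamethasone over vehicle differences of 0.46 ± 0.34 and 0.23 ± 0.20. Other probe sets of a gene did not always match. For dexamethasone over vehicle, the dimmer Uqcrc2 probe set gave -0.70 ± 1.08 where the brighter gave -0.18 ± 0.23. The dimmer probe set of the assembly factor Uqcc1 gave -0.71 ± 0.24 (adjusted p = 0.192 by limma) where the brighter gave -0.10 ± 0.23. Those of Ndufa9, a complex I subunit, gave -0.69 ± 0.19 (adjusted p = 0.127 by limma) and -0.11 ± 0.18.

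The paired isoforms of complex IV allowed the muscle forms to be set beside the others as differences between groups. Cox6a2, the heart and skeletal muscle form of subunit VIa, had signals of 14.45, 14.39 and 14.37 in the combination arrays, 14.27, 14.50 and 14.45 in the dexamethasone arrays and 14.44, 14.42 and 14.40 in the vehicle arrays, and the groups overlapped. Its difference was -0.01 ± 0.16 for dexamethasone over vehicle (95% interval -0.37 to 0.35). Cox6a1, the form of other tissues, had 10.21, 10.12 and 9.93 in the combination arrays, 9.68, 10.37 and 10.21 in the dexamethasone arrays and 10.41, 10.68 and 10.33 in the vehicle arrays. All combination arrays lay below all vehicle arrays for Cox6a1, with a difference of -0.39 ± 0.22 (adjusted p = 0.847 by limma), and dexamethasone over vehicle was -0.39 ± 0.22 (adjusted p = 0.452).

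Cox8b, the muscle form of subunit VIII in rodents, differed by -0.29 ± 0.19 in dexamethasone against vehicle, and Cox8a, the form of other tissues, by -0.09 ± 0.20. For Cox4i1, the general form of subunit IV, dexamethasone over vehicle was -0.10 ± 0.16. Its counterpart Cox4i2, best known from lung, had 4.98, 5.07 and 6.80 in the combination arrays, 6.17, 6.07 and 5.33 in the dexamethasone arrays and 6.68, 6.84 and 6.44 in the vehicle arrays, a combination over vehicle difference of -1.04 ± 0.46 (adjusted p = 0.815 by limma) in a dim probe set. Cox7a1, the muscle form of subunit VIIa, spread widely, with 7.59, 8.89 and 9.02 in the combination arrays, 7.43, 9.82 and 8.88 in the dexamethasone arrays and 9.92, 9.10 and 8.92 in the vehicle arrays, and its interval for dexamethasone over vehicle ran from -1.97 to 0.76. Cox6b1, a subunit with a testis-specific partner, had 0.01 ± 0.21 for dexamethasone over vehicle and -0.20 ± 0.21 for the combination over dexamethasone (adjusted p = 0.804 by limma). Ndufa4l2, a paralog of Ndufa4 known as a hypoxia-induced gene, had 7.46, 7.43 and 7.44 in the combination arrays, 6.23, 6.70 and 7.26 in the dexamethasone arrays and 7.05, 7.89 and 7.35 in the vehicle arrays, with a combination over dexamethasone difference of 0.71 ± 0.30 (adjusted p = 0.425 by limma). The combination arrays were close together, and all lay above the dexamethasone arrays. Ndufa4 itself had 0.08 ± 0.17 in that comparison.

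**Figure D3:**
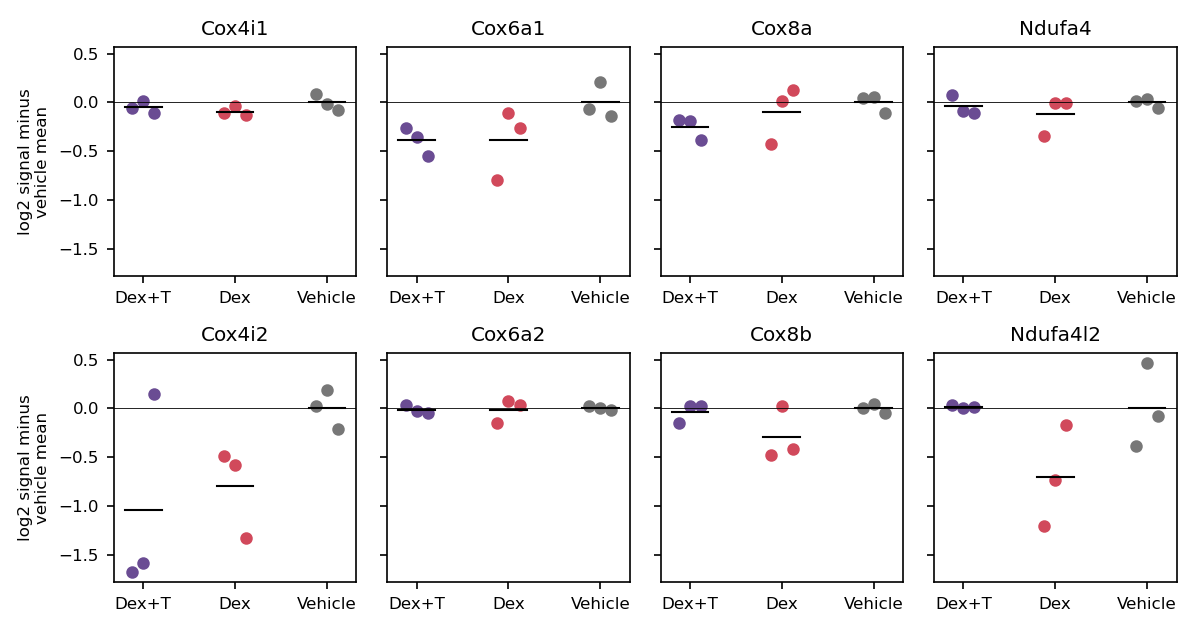
Log2 signal minus the vehicle mean for 4 pairs of related genes, with 1 point per array and a bar at the group mean (n = 3 per group; Dex+T, dexamethasone plus testosterone; Dex, dexamethasone). Cox6a2 and Cox4i1 stay near 0 in all groups, while Cox4i2 and Ndufa4l2, which have dim probe sets, spread over more than 1 log2 unit within the dexamethasone group or the combination group, and none passed the test.

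In the ATP synthase, the catalytic F1 subunit Atp5f1b differed by 0.04 ± 0.18 between dexamethasone and vehicle (95% interval -0.35 to 0.44) and Atp5f1a, the other large F1 subunit, by -0.18 ± 0.19. Atp5f1d, a subunit of the F1 stalk, had 13.47, 13.49 and 13.34 in the combination arrays, 12.73, 13.43 and 13.13 in the dexamethasone arrays and 13.56, 13.63 and 13.42 in the vehicle arrays. Its difference of -0.44 ± 0.21 (adjusted p = 0.356 by limma) was the lowest of the complex, and replicate 1 was again the lowest of the dexamethasone arrays. Atp5mc3, a gene of the proton-carrying c ring, differed by -0.27 ± 0.19. Atp5mpl, a small membrane subunit, had 0.35 ± 0.18 for the combination over dexamethasone (adjusted p = 0.546 by limma). Atp5f1e, another F1 subunit, had 0.03 ± 0.19 for the combination over vehicle (adjusted p = 0.986 by limma), where 13 of 16 genes of the complex were below 0. Atp5if1, which inhibits ATP hydrolysis by the enzyme, had 9.37, 9.45 and 9.39 in the combination arrays, 9.79, 9.41 and 9.91 in the dexamethasone arrays and 10.02, 9.55 and 9.88 in the vehicle arrays, a combination over vehicle difference of -0.41 ± 0.20 (adjusted p = 0.83 by limma). All combination arrays lay below all vehicle arrays in this probe set. A second tested, dimmer probe set of Atp5if1 had the opposite sign, with 0.34 for the combination over vehicle and 0.54 for dexamethasone over vehicle, where the brighter gave -0.11.

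**Figure D4:**
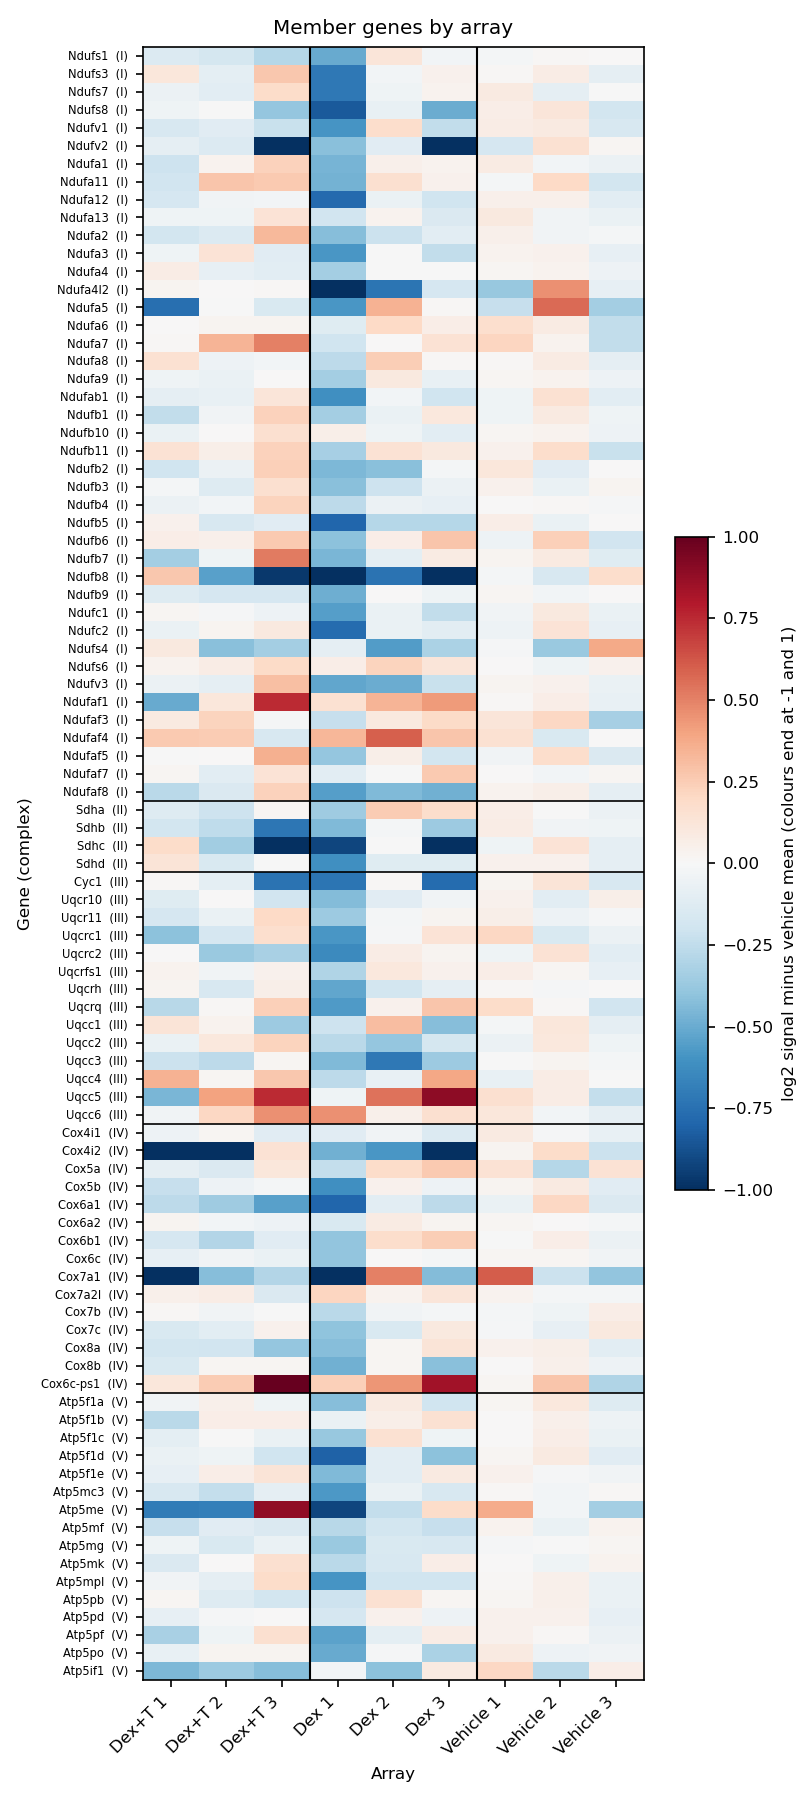
Log2 signal minus the vehicle mean of every tested member gene, by complex and array, with colours ending at -1 and 1 (Dex+T, dexamethasone plus testosterone; Dex, dexamethasone). The column of dexamethasone replicate 1 is the lowest of the 9 arrays for 66 of 91 genes, and the pale rows show genes with small differences in every array.

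Other genes of the pathway were taken from lists and tested in the same fit. Of 31 tested assembly factors outside the name rule (1 of them, Atp5if1, is also a member), 1 passed the test in dexamethasone against vehicle, where 136 of all 10428 genes did, and none in the other comparisons. It was Nubpl, whose protein helps insert iron-sulfur clusters into complex I. Nubpl had log2 signals of 8.34, 9.36 and 9.53 in the combination arrays, 10.14, 9.91 and 10.54 in the dexamethasone arrays and 8.23, 8.15 and 8.42 in the vehicle arrays. All dexamethasone arrays were above all others, and Nubpl rose by 1.93 ± 0.32 over vehicle (adjusted p = 0.0324 by limma; 95% interval 1.21 to 2.64). Within the technical sets the difference was 1.81 and 1.76, and dexamethasone replicate 1, low for the members, was not the highest. The combination differed from dexamethasone by -1.12 ± 0.32 (adjusted p = 0.224 by limma; -1.80, -0.54 and -1.01 within the sets) and from vehicle by 0.81 ± 0.32 (adjusted p = 0.815). The rise passed the threshold in 12 of 20 alternatives, with values of 1.70 to 2.24 and adjusted p of 0.0091 to 0.155. It did not pass without filtering, with the replicate number as a block, or without vehicle replicate 1, 2 or 3, dexamethasone replicate 1 or 2 or combination replicate 2, where the difference was 1.88 to 2.08.

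None of the 15 tested coenzyme Q genes, 14 regulators, 12 membrane proteins and 2 uncoupling genes passed in any comparison. Median differences of dexamethasone from vehicle were -0.09, 0.21, 0.02 and 0.69 in that order, beside 0.04 for all genes. Of the regulators 11 of 14 were above 0, where 5665 of all 10428 genes were. Examples chosen after their values were seen follow. The largest difference of the list was that of Ppargc1b, a coactivator related to Ppargc1a, and lay below 0. It had signals of 8.33, 7.83 and 8.06 in the combination arrays, 6.40, 6.74 and 7.59 in the dexamethasone arrays and 8.30, 7.49 and 7.59 in the vehicle arrays. Its differences were -0.88 ± 0.34 for dexamethasone over vehicle (adjusted p = 0.255 by limma) and 1.16 ± 0.34 for the combination over dexamethasone (adjusted p = 0.239). Tfb2m, a mitochondrial transcription factor, had 0.45 ± 0.17 (adjusted p = 0.248 by limma), Tfam, which packages and transcribes mitochondrial DNA, 0.46 ± 0.26, and Ppargc1a, the coactivator of mitochondrial biogenesis, 0.01 ± 0.23. Ucp3, the uncoupling protein of skeletal muscle, had 0.82 ± 0.34 (adjusted p = 0.286 by limma). In dexamethasone replicate 1 the median difference from the vehicle mean was -0.34 for coenzyme Q genes, -0.21 for the outside assembly factors, -0.16 for membrane proteins and 0.23 for regulators, against -0.42 for the members.

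Marker lists of muscle fibres and other cells were read on the same arrays. In dexamethasone replicate 1 the 8 fibroblast markers had a median of -3.31 and the 2 red cell markers of -2.06 relative to the vehicle mean, while the 8 slow fibre markers had 0.13, the 9 fast fibre markers -0.10 and the 5 muscle fibre markers 0.00. Summed fibroblast marker signals were 11380 to 33684 in the combination group, 4302 to 15375 in the dexamethasone group and 28306 to 43833 in the vehicle group, and all 8 markers passed the filter on low signal. The fibroblast list was also low in dexamethasone replicates 2 and 3, at -1.89 and -1.51, and in combination replicates 2 and 3, at -1.34 and -1.94, where the members' medians lay between -0.05 and 0.02. Macrophage markers had -1.42, -0.60 and 0.23 in dexamethasone replicates 1, 2 and 3, and -0.12, -1.11 and -1.09 in the combination replicates. Endothelial markers had -0.43, -0.59 and -0.08, and -0.49, -0.58 and -0.30, in the same order. Red cell markers had -0.47 and -0.81 in dexamethasone replicates 2 and 3, and -1.26, -0.26 and -0.69 in the combination replicates. The part of these cells in the members' low values in dexamethasone replicate 1 was not tested. The slow fibre markers had a median of -5.13 in combination replicate 1, -0.07 in replicate 2 and -1.36 in replicate 3, with summed signals of 2866 to 99927 in the combination group, 114278 to 138672 in the dexamethasone group and 97942 to 123750 in the vehicle group. In combination replicate 1, where these markers were lowest, the members' median was -0.06.

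**Figure D5:**
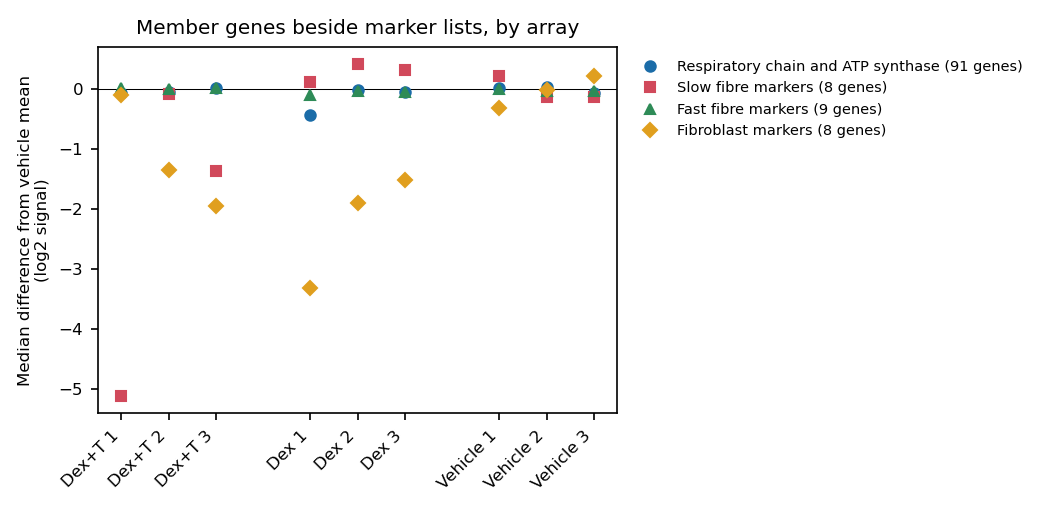
Median log2 signal minus the vehicle mean for the 91 member genes and for slow fibre, fast fibre and fibroblast marker lists in each array (Dex+T, dexamethasone plus testosterone; Dex, dexamethasone). The slow fibre list lies at -5.13 in combination replicate 1 and the fibroblast list at -3.31 in dexamethasone replicate 1, while the members stay between -0.42 and 0.04.

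Promoters of the chain genes are known for sites of NRF1, GABP, ERR and YY1, transcription factors tied to mitochondrial genes. Sequences from 250 bases before to 50 bases after the start, credited to RefSeq on GRCr8, were found for 84 of the 93 members and searched on both strands. CGCATGC, the NRF1 core (its own reverse complement GCATGCG overlaps it in CGCATGCG), was in 12 of 84 member promoters (14.3%), against 3.5% of 27457 promoters of all genes. CCGGAAG, a GABP core, was in 24 (28.6%, all genes 9.2%), AAGGTCA, an ERR half-site, in 11 (13.1%, all genes 4.4%) and AAGATGG, a YY1 core, in 21 (25.0%, all genes 7.3%). Genes with and without a motif had median dexamethasone over vehicle differences of -0.16 and -0.16 for NRF1, -0.17 and -0.16 for GABP, -0.18 and -0.15 for ERR, and -0.24 and -0.13 for YY1. These are descriptions of letters in a window and not of binding.

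Promoter windows are given from 160 bases before to 30 bases after the start, for 5 genes: Ndufb8, the gene with the largest difference, Ndufaf4, which differed in the opposite direction, Sdhd of complex II, and the isoform pair Cox8a and Cox8b. Capitals mark matches to the 4 motifs on either strand, and Cox8b, the muscle form, has none in this window while Cox8a has 4.
Ndufb8 (chr1:253362907-253363096, minus strand): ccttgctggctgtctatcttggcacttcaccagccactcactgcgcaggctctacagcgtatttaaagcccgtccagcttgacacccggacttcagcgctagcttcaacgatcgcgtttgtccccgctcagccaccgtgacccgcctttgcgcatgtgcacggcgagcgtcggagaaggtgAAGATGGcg
Ndufaf4 (chr5:43401635-43401824, plus strand): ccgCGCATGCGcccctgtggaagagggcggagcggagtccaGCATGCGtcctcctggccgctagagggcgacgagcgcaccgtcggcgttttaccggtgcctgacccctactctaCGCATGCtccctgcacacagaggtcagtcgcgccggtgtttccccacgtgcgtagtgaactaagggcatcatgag
Sdhd (chr8:59850612-59850801, minus strand): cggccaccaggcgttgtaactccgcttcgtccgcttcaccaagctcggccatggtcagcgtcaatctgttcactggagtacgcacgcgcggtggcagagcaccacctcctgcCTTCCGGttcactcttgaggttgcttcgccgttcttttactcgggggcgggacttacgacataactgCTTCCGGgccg
Cox8a (chr1:213833594-213833783, minus strand): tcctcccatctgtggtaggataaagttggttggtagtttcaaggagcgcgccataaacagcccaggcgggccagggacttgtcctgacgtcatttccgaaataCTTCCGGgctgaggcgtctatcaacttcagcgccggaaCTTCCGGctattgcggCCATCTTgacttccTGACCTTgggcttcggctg
Cox8b (chr1:205408244-205408433, minus strand): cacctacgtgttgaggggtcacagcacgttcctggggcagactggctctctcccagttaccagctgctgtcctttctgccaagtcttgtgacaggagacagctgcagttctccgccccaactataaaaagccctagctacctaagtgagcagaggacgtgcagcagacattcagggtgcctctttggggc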

How the data were processed

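Each of the 9 deposited columns holds the authors' linear intensity of every probe set on 1 array, with the signal algorithm not given in the sources used here; RNA was hybridised to the rat genome array by the standard Affymetrix protocol, per the labels' protocols. Each array is a separate animal, so p-values cover the spread between animals. The 57 control probe sets were left out. Log2(intensity + 16) was quantile normalized, probe sets were kept from the 40th percentile of mean signal upwards, and the 18625 kept were fitted with limma 3.58.1 in R 4.3.3, using 3 group means and all 9 arrays; Benjamini-Hochberg adjustment ran within each comparison over all tested probe sets, with a threshold of 0.05. Fold changes on this scale are understated for dim probe sets, and the number of arrays limits the precision. Membership followed the symbols of the platform annotation, and the symbols shown were updated by gene ID to those of RefSeq on GRCr8. A gene is its brightest probe set. Genes named are the tissue-specific isoform pairs, the catalytic or redox-centre subunits and, for each complex and comparison, the gene of lowest unadjusted p in each direction. The value in the comparison that led to the naming is not always printed. Ndufaf8 was added. The members and the gene lists were chosen with earlier results of these data known, so no p-value is given for a score over members. Alternatives were the pseudocount, the scaling, the filter, the variance model, the arrays fitted, the replicate number or technical set as a block, and each array left out. The procedure was also run on simulated data with independent noise for each probe set. These data held no shift of a whole array and no technical sets, so the run cannot show how the procedure handles either.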

Additional observations from a re-analysis of the deposited data

How the results depend on the processing

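Members past the threshold numbered 0 under every alternative run. Counts over all probe sets moved more: for dexamethasone against vehicle 196 became 129 with a pseudocount of 4, 414 with 64, 130 with median scaling, 48 with no filter, 469 with a filter at the 60th percentile, 510 with an intensity trend and robust variance, 123 with the 6 arrays compared, and 460 without the 2 arrays of highest 3′ to 5′ ratio. Leaving out 1 array gave 1 to 340, with 2, 1 and 1 without vehicle replicates 1, 2 and 3, 6, 13 and 340 without dexamethasone replicates 1, 2 and 3, and 52 without combination replicate 2. For the combination against dexamethasone 21 became 5, 102, 6, 0, 83, 149, 0 and 39 in the same order, and 0 to 67 with 1 array left out (67 without dexamethasone replicate 3, 5 without vehicle replicate 1, and 0 or 1 without any other array). With median scaling the dexamethasone over vehicle medians were 0.16 for the members and 0.18, 0.07, 0.20, 0.17 and 0.12 for complexes I to V, beside 0.28 for all genes. The combination over vehicle medians were 0.35 for the members and 0.37, 0.11, 0.37, 0.32 and 0.31 for the complexes, beside 0.25 for all genes. Leaving out 1 array moved the members' median between -0.23 and -0.03 for dexamethasone over vehicle, with complexes I to V between -0.24 and -0.03, -0.38 and -0.16, -0.27 and 0.03, -0.20 and -0.00, and -0.25 and -0.05; the upper ends, of the members and of all 5 complexes, are those without dexamethasone replicate 1. The cause of these movements was not tested. The labels name no pairs among same-numbered arrays. Correlations of deviations from the group means ran from -0.201 to 0.587 for same-numbered arrays of different groups. For arrays of different groups and numbers they ran from -0.537 to 0.352. These overlapping ranges cannot decide whether same-numbered arrays share a block. With the replicate block the counts over all probe sets were 13 for dexamethasone against vehicle, 0 for the combination against dexamethasone and 0 for the combination against vehicle, and 0 members passed. Of 2277 values of named member genes under alternatives, 66 moved by more than the spread between replicates. This share cannot measure robustness, because several alternatives cannot move a gene's log2 difference. These are the filter, the variance model, the fit over the 6 arrays compared and the replicate block.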
